A study of Mus musculus with 6 samples.

Results

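The 9 genes described here encode proteins of eosinophils: the granule proteins Prg2, Prg3, Epx, Ear1, Ear2 and Ear6 and the surface receptors Siglecf, Il5ra and Ccr3. They were taken by symbol from the deposited gene tables, and all 9 were among the 15483 genes listed there. The libraries came from regulatory T cells (Tregs, CD4 T cells that depend on the transcription factor Foxp3 and restrain immune responses) sorted from mouse bone marrow as cells positive for CD3, CD4 and Foxp3 and negative for NK1.1. There were 2 groups of 3 libraries each, and both were of WT genotype. One group was from control mice and the other from mice 3 months after irradiation (IR). The sources used here name no strain, age or radiation dose. Whether the libraries of a group are from different mice is not stated, so the p-values reflect only how far these libraries spread, which may be technical.

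Eosinophils are granulocytes that mature in the bone marrow under interleukin-5, a cytokine made by T cells and innate lymphoid cells. Their large granules hold cationic proteins, a haem peroxidase and ribonucleases, whose messages are made mostly while the cell still matures. Mature eosinophils leave the marrow and follow eotaxin chemokines through the receptor CCR3. A Treg does not make these granules, and the genes served here as readouts of eosinophil transcripts in the sorted material. Siglecf is also transcribed in alveolar macrophages and the Ear genes in some macrophages, so the 9 genes do not mark eosinophils alone.

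All 6 libraries held T cell transcripts. Foxp3 stood at 21.2 to 24.8 FPKM in control and 11.9 to 13.5 FPKM in irradiated libraries, where FPKM counts fragments per kilobase of a transcript relative to the size of the library. Transcripts of other marrow cells were abundant too, led by the neutrophil gene S100a8 at 25283 ± 1249 FPKM in control and 39026 ± 427 with irradiation (SD, n = 3 libraries per group). From the steps between low values, the depth was estimated at about 17000000 to 17900000 fragments per control library and 14300000 to 16100000 per irradiated library. In bulk libraries, fewer cells of a type and less RNA per cell cannot be told apart.

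The 6 granule genes and the receptor gene Ccr3 fell in irradiated libraries, while the receptor genes Siglecf and Il5ra did not pass the test. Changes of the granule genes ran from -0.92 (Prg3) to -0.63 (Prg2). Of the 9 genes, 7 were lower and 0 higher (limma on log2(FPKM + 1), Benjamini-Hochberg adjusted p under 0.05 over 10666 genes). Among all tested genes 10.3% were lower and 6.29% higher, 16.6% in all. The median log2 change, irradiated minus control, was -0.81 over the 9 genes and -0.02 over all tested genes. In 8 of the 9 genes every irradiated value lay below every control value, which held for 20.1% of all tested genes. The 9 genes were chosen with earlier results of these data known, so their counts beside these shares are a description and not a test. As a share of all FPKM in a library, the 9 genes came to 1.25% ± 0.0401 in control and to 0.740% ± 0.00560 after irradiation (SD, n = 3).

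**Figure D1:**
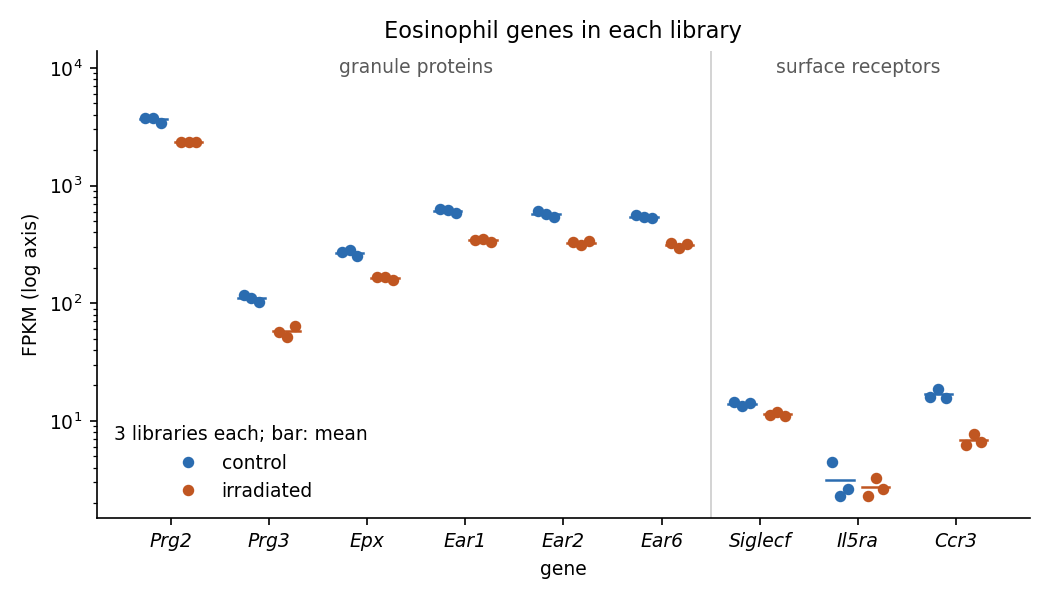
FPKM on a log axis of the 9 eosinophil genes in 3 control (blue) and 3 irradiated (orange) libraries, with a bar at each group's mean. The irradiated points lie below the control points for every gene apart from Il5ra, and the granule genes stand far above the receptors.

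Prg2, which encodes major basic protein, the cationic core protein of the eosinophil granule, had by far the highest level of the 9. It stood at 3788, 3776 and 3386 FPKM in control replicates 1, 2 and 3 and at 2334, 2346 and 2368 FPKM in irradiated replicates 1, 2 and 3. The groups did not overlap, and the coefficient of variation was 0.738% in irradiated libraries and 6.27% in control, where replicate 3 was the lowest. The log2 change was -0.63 ± 0.05 SE (limma adjusted p = 6.21e-06), and the irradiated mean was 35.6% below control. By level, Prg2 ranked 7 among all listed genes in each control library and 11 in each irradiated library. The gene lies on chromosome 2 from 84980461 to 84983632 on the plus strand (GRCm38, GENCODE M21).

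Prg3 encodes a second, less cationic homologue of major basic protein and lies on the same strand 4583 bases after Prg2 (chromosome 2, 84988215 to 84993886). It stood at 117, 110 and 103 FPKM in control and at 57.1, 51.9 and 64.2 FPKM in irradiated libraries. All irradiated values were below all control values, with a log2 change of -0.92 ± 0.08 (limma adjusted p = 1.34e-05). The level of Prg3 was thus much lower than that of its neighbour, and its percent fall was larger, at 47.5%. The coding sequences of both genes shared 64.1% of aligned bases, and no stretch of 50 bases of either transcript occurred in a transcript of another gene. Reads of such a length can therefore be told apart, and the last 120 coding bases of both are shown for that reason, from GENCODE M21 transcripts, with bases of Prg3 that differ from Prg2 in the alignment in capitals.
Prg2: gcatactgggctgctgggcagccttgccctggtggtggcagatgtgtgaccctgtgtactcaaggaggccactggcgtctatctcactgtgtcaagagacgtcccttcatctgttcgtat
Prg3: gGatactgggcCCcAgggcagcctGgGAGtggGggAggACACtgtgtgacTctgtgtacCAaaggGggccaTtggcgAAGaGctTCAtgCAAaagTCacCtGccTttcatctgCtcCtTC
Of the 120 bases of Prg3, 38 differed from Prg2. The gene before Prg2, Slc43a3 (a transporter gene), had group means of 30.7 and 33.8 FPKM and missed the threshold (0.13 ± 0.08, limma adjusted p = 0.300). The gene after Prg3, P2rx3, had means of 0.449 and 0.201 FPKM, too low to be tested.

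Epx encodes eosinophil peroxidase, the granule haem enzyme that turns halides into oxidants (chromosome 11, 87864000 to 87875536, minus strand). Its values were 275, 282 and 252 FPKM in control and 167, 169 and 158 FPKM in irradiated libraries. As for Prg2 the groups did not overlap and control replicate 3 was the lowest of its group. The log2 change of Epx was -0.71 ± 0.05 (limma adjusted p = 6.41e-06), a mean 39.1% below control. Mks1, whose gene ends 197 bases from Epx, stood at 2.66 and 3.07 FPKM in the groups and did not pass (0.18 ± 0.19, limma adjusted p = 0.584).

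Mpo, the peroxidase of neutrophil primary granules and a close relative of Epx, stood at 1790 ± 138 FPKM in control and 1857 ± 11.5 in irradiated libraries (SD, n = 3) and did not pass (0.06 ± 0.05, limma adjusted p = 0.545). The log2 ratio of Epx to Mpo was -2.76, -2.73 and -2.69 in control and -3.48, -3.44 and -3.55 in irradiated libraries. These values, on the log2(FPKM + 1) scale, did not overlap. The groups differed by -0.77 (exact permutation test, two-sided, p = 0.1, or 0.117 adjusted over 7 ratios), and no smaller p can come from 3 libraries per group. Of the other haem peroxidase genes tested, the cyclooxygenase gene Ptgs1 rose by 0.26 ± 0.08 and Ptgs2 fell by 1.26 ± 0.21. Lpo, the lactoperoxidase gene, was listed at 0 in all irradiated libraries and at up to 0.0635 FPKM in control.

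Ear1, Ear2 and Ear6 encode eosinophil-associated ribonucleases, rodent members of the RNase A superfamily. They lie on chromosome 14, Ear1 from 43818765 to 43875517 on the minus strand, Ear2 from 44102654 to 44103534 and Ear6 from 51853699 to 51854643, both on the plus strand. Their first 120 coding bases are shown because the copies are so alike that short reads can be shared between them, with bases that differ from Ear1 in capitals.
Ear1: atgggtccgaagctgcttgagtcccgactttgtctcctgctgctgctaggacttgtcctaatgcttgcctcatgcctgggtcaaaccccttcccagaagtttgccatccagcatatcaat
Ear2: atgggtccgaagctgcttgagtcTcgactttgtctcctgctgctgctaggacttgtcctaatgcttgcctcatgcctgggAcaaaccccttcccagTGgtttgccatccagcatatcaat
Ear6: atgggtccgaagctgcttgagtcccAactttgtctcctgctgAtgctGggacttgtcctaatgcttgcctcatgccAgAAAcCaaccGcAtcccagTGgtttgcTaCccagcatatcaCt
Within this stretch Ear2 differed from Ear1 at 4 bases and Ear6 at 15. Over the whole coding sequence, Ear1 and Ear2 shared 95.1% of aligned bases, Ear1 and Ear6 87.3%, and Ear2 and Ear6 87.6%. Of the 50-base stretches of the transcript, 57.4% of those of Ear1 and 41.5% of those of Ear2 also occurred in a transcript of another gene, mainly Ear10, Ear pseudogenes and each other. For Ear6 that share was 1.36%. With 100-base stretches the shares were 23.9%, 13.9% and 0.00%. The sources used here do not say how reads that fit several copies were counted, so the separate levels of Ear1 and Ear2 are uncertain, while those of Ear6 rest almost wholly on its own sequence.

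Ear1 stood at 628, 622 and 580 FPKM in control and at 347, 348 and 334 FPKM in irradiated libraries. Ear2 was at 604, 569 and 546 FPKM in control and at 332, 311 and 337 FPKM in irradiated libraries. For Ear6 the values were 562, 541 and 535 FPKM in control and 323, 293 and 318 FPKM in irradiated libraries. In none of these genes did the groups overlap, and each irradiated mean was 43.0% to 43.8% below control. The log2 changes were -0.83 ± 0.05 for Ear1, -0.81 ± 0.05 for Ear2 and -0.81 ± 0.05 for Ear6 (limma adjusted p from 5.73e-07 to 1.49e-06). The change of Ear6, whose stretches are nearly all its own, was as large as that of the 2 copies that share sequence. Summed over the 3 genes, the level was 1729 ± 66.6 FPKM in control and 981 ± 25.8 in irradiated libraries (SD, n = 3). The sum depends little on how reads were split among the 3 genes. It still depends on how reads shared with Ear10 or the Ear pseudogenes were counted.

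The other ribonuclease genes of this cluster were near the floor. Ear10 stood at 0.248 to 0.963 FPKM in control and 0.178 to 1.11 in irradiated libraries. Its level is uncertain like those of Ear1 and Ear2, with which it shares stretches. Ear14 was listed at 0 in 5 libraries and at 1.08 FPKM in irradiated replicate 2. Both Ear10 and Ear14 were too low to be tested. Rnase2b had means of 1.22 and 1.58 FPKM and did not pass (log2 change 0.26 ± 0.26, limma adjusted p = 0.548), and Rnase2a, below the limit for testing, ranged from 0 to 2.15 FPKM. Of the RNase A genes outside the Ear group, 3 were tested and 1 fell, Rnase6, at -0.66 ± 0.09 (22.7 ± 1.67 to 14.1 ± 1.23 FPKM), while Ang and Rnase4 did not pass.

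Among the receptors, Ccr3 showed the largest change of all 9 genes. It encodes the receptor for eotaxins that guides eosinophils into tissues (chromosome 9, 124021972 to 124031689, plus strand). The values were 15.9, 18.7 and 15.7 FPKM in control and 6.26, 7.71 and 6.63 FPKM in irradiated libraries. The groups lay far apart, and the irradiated mean was 59.0% below control. The log2 change was -1.17 ± 0.11 (limma adjusted p = 3.18e-05), on a scale that understates the change of low genes. An estimated 310 to 1041 fragments per library lay behind these values.

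Siglecf encodes a sialic acid-binding receptor that carries inhibitory signals and is the usual surface marker of mouse eosinophils (chromosome 7, 43351341 to 43359531, plus strand). It stood at 14.3, 13.5 and 14.2 FPKM in control and 11.2, 11.8 and 11.1 FPKM in irradiated libraries. The groups did not overlap, but the difference of -0.28 ± 0.09 did not pass the threshold (95% interval -0.47 to -0.08, limma adjusted p = 0.0536). With limma's variance model without a trend it did pass (adjusted p = 0.0455), and over 14 alternative fits the adjusted p ran from 0.0455 to 0.159. The ratio of Ccr3 to Siglecf turned over: Ccr3 was above Siglecf in 3 of 3 control libraries and below it in 3 of 3 irradiated libraries. On the log2(FPKM + 1) scale that ratio was 0.14, 0.45 and 0.14 in control and -0.74, -0.56 and -0.67 in irradiated libraries, a difference of -0.90 (two-sided exact permutation p = 0.1, adjusted 0.117).

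Il5ra encodes the alpha chain that gives the interleukin-5 receptor its specificity (chromosome 6, 106710357 to 106749037, minus strand), and it was the lowest of the 9. It stood at 4.51, 2.29 and 2.61 FPKM in control and 2.30, 3.27 and 2.64 FPKM in irradiated libraries. The groups overlapped, and control replicate 1 lay well above the other two control libraries. The log2 change was -0.12 ± 0.20 with a 95% interval of -0.56 to 0.32 (limma adjusted p = 0.746), and without control replicate 1 it was 0.11. An estimated 62 to 134 fragments per library lay behind these values, and at this low level the log2(FPKM + 1) scale shrinks changes, so the interval cannot be set against those of the abundant granule genes.

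**Figure D2:**
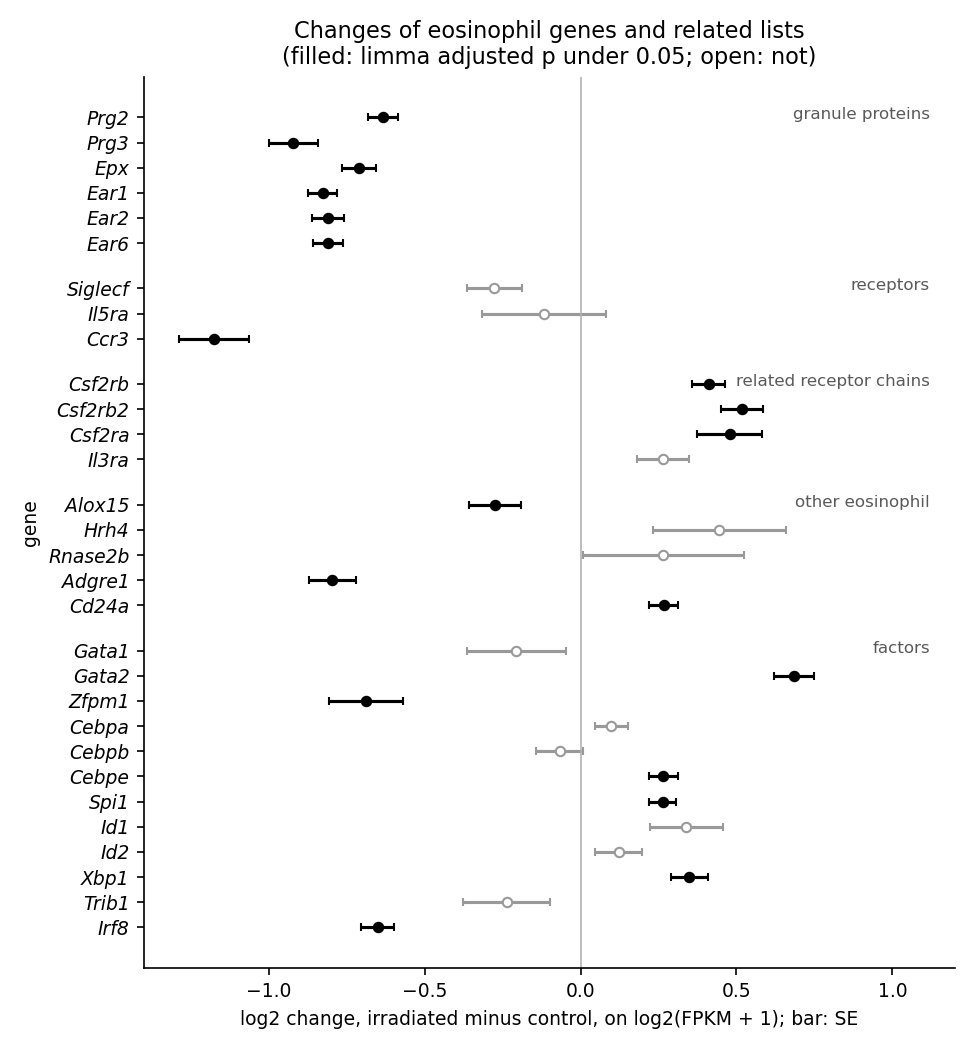
Log2 change, irradiated minus control, with its SE for the 9 eosinophil genes, related receptor chains of interleukin-3, interleukin-5 and GM-CSF, other eosinophil genes and regulators of eosinophil development. Filled points passed the limma test. The granule genes lie between -0.92 and -0.63, Ccr3 at -1.17, and Csf2rb and Csf2rb2 to the right of 0.

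Order by level was Prg2, Ear1, Ear2, Ear6, Epx, Prg3, Ccr3, Siglecf and Il5ra in control. In irradiated libraries it was the same apart from Siglecf, which stood above Ccr3. The ranges of Ear1 and Ear2 and of Ear2 and Ear6 overlapped in both groups, and all other neighbours in the order were apart in both. Within the granule set, the log2 ratio of Prg2 to Epx moved by 0.08, from 3.75 ± 0.0227 to 3.83 ± 0.0617 (SD, n = 3), with no overlap of the groups. Against Siglecf, Prg2 fell from 7.93 ± 0.114 to 7.57 ± 0.0495, a difference of -0.36 whose groups did not overlap (two-sided exact permutation p = 0.1, adjusted 0.117, for either ratio). Prg2 made up 62.3% to 63.6% of the summed level of the 9 genes in control and 65.2% to 66.2% in irradiated libraries.

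The upstream sequences were read because the granule genes moved together. RefSeq promoter windows (GRCm38.p6) matched 8 of the 9 genes by symbol. Prg2 had no entry. In the 250 bases before the start, Ear1 and Ear2 shared 97.6% of aligned bases, so the near-identity of these 2 copies extends beyond the transcript. That share counts end bases left unpaired by an offset of the windows as differences. The GENCODE gene of Ear1 has a second transcript that starts further upstream, so its window, set by the RefSeq start, lies inside that gene. Both windows are printed, with bases of Ear2 that differ from Ear1 or have no aligned base there in capitals. The first 2 capitals, CA, lie before the first base of the Ear1 window and are not mismatches.
Ear1, chr14:43819640-43819889, minus strand: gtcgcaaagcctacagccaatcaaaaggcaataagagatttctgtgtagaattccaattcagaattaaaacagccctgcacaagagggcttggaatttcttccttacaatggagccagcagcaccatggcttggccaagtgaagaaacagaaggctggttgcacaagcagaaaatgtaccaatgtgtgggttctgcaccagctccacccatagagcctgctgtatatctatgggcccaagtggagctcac
Ear2, chr14:44102404-44102653, plus strand: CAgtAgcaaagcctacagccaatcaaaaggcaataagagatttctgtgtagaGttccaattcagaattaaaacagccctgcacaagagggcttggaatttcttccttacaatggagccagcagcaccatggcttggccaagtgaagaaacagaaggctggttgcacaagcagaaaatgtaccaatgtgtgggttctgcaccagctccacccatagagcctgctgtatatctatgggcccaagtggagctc
Ear1 and Ear6 shared 78.2% in the same window and Ear2 and Ear6 77.3%, with gaps again counted as differences. The Ear6 window, chr14:51853518-51853767, runs past the start of the GENCODE gene at 51853699, so it is not all upstream of that gene. The core letters bound by GATA factors, GATAA on either strand, occurred in 3 of the 8 windows, those of Prg3, Il5ra and Ccr3, and in 22.6% of all 32851 promoter windows of that length. Prg3 held 2 matches, starting 123 and 111 bases before the start, and Il5ra 1, starting 73 bases before. They are shown in capitals, as TTATC where the match is on the other strand.
Prg3, chr2:84987965-84988214, plus strand: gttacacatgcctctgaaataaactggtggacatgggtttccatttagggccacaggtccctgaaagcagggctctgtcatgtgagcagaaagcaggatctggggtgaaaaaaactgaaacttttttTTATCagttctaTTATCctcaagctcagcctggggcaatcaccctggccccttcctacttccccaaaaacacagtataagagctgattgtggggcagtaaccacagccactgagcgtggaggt
Il5ra, chr6:106749038-106749287, minus strand: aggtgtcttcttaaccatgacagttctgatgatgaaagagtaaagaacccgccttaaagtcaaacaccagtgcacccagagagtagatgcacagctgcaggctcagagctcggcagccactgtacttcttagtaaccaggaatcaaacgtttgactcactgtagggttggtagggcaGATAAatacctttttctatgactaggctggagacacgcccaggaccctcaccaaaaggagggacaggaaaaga
The letters TTNNGNAA, found in sites of C/EBP factors and searched on both strands, occurred in 6 of the 8 windows and in 36.9% of all windows. The matches of Ear1, Ear2 and Ear6, starting 92, 90 and 112 bases before the start, lie in the same stretch of these similar copies. They are thus not 3 separate cases, and the count cannot be set against the share of all windows. Prg3 and Ccr3, whose windows held both motifs, fell, and Il5ra, with GATAA alone, did not pass the test. With TTNNGNAA alone, Siglecf did not pass, while Ear1, Ear2 and Ear6 fell. Epx had no match to either motif and fell as well. These matches are descriptions of letters and not of binding.

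Il5ra pairs with a beta chain, and transcripts of that chain were higher in irradiated libraries. Which cells they came from was not tested, and neutrophil and basophil markers rose as well. Csf2rb, the signalling beta chain shared by the receptors for interleukin-5, interleukin-3 and GM-CSF, rose from 106 ± 2.36 to 141 ± 6.71 FPKM (SD, n = 3), a log2 change of 0.41 ± 0.05. Csf2rb2, a close copy that serves the mouse interleukin-3 receptor and may share reads with Csf2rb, rose by 0.52 ± 0.07 and Csf2ra, the GM-CSF receptor alpha chain, by 0.48 ± 0.10. Il3ra, the interleukin-3 receptor alpha chain, was at 31.7 ± 2.49 and 38.3 ± 3.19 FPKM and did not pass (0.26 ± 0.08, limma adjusted p = 0.0540). Over all tested genes 6.29% rose and 10.3% fell. Of the 22 tested genes of interleukin-5 receptor signalling, 5 rose and 1 fell, with a median log2 change of -0.08. The other genes that rose were the kinase gene Pim1 (0.29 ± 0.06) and the feedback inhibitor Socs3 (0.58 ± 0.11). Jak2 (-0.12 ± 0.08), Stat5a (-0.07 ± 0.12), Stat5b (-0.15 ± 0.08), Lyn (-0.17 ± 0.06) and Cish (-0.14 ± 0.11) did not pass. Il5 is not listed in the tables used here and was not analysed.

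Transcripts of the listed CCR3 ligands other than Ccl5 were few. Ccl11, a further ligand gene of CCR3, is not listed and was not analysed. Ccl5, which T cells and NK cells make and which binds other chemokine receptors too, fell from 141 ± 1.77 to 86.4 ± 6.39 FPKM (-0.70 ± 0.06, limma adjusted p = 1.27e-05). Ccl24, an eotaxin gene, was at 0 to 0.228 FPKM over the 6 libraries, and Ccl7 and Ccl28 at 0 to 0.216 FPKM. Ccl8 had means of 1.59 and 0.435 FPKM and did not pass. Among the chemokine receptor genes near Ccr3 on chromosome 9 that were tested, 4 of 6 fell and 1 rose. Over all tested genes 10.3% fell and 6.29% rose. Ccr2, the next listed gene after Ccr3, 70261 bases away, stood at 110 ± 3.77 and 108 ± 6.85 FPKM and did not pass (-0.03 ± 0.06). Ccr1, a receptor of neutrophils and monocytes, rose by 0.53 ± 0.08. Ccrl2 fell from 5.04 ± 0.226 to 2.07 ± 0.732 FPKM, Ccr9 by 0.95 ± 0.18 on the log2 scale and Cxcr6 by 0.36 ± 0.08.

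Regulators of eosinophil development moved in both directions, with 4 of 12 higher, 2 lower and a median of 0.11. Over all tested genes 6.29% were higher and 10.3% lower. Gata1, the factor that eosinophil commitment depends on, stood at 13.1, 7.67 and 9.71 FPKM in control and 9.36, 8.30 and 7.87 FPKM in irradiated libraries. Its groups overlapped and it did not pass (-0.21 ± 0.16, limma adjusted p = 0.436). Zfpm1, which encodes the GATA partner FOG-1, fell from 14.4 ± 1.15 to 8.60 ± 1.36 FPKM (-0.69 ± 0.12), and Irf8 by 0.65 ± 0.05 from 101 ± 0.982 FPKM. Gata2, a factor of progenitors, basophils and mast cells, rose from 52.4 ± 3.62 to 84.6 ± 2.13 FPKM (0.68 ± 0.06). Cebpe, needed for the late maturation of both neutrophils and eosinophils, rose by 0.27 ± 0.05, Spi1 (PU.1) by 0.26 ± 0.04 and Xbp1, on which eosinophil survival depends, by 0.35 ± 0.06. Neutrophil markers rose in the same libraries, and their part in these values was not tested.

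Other genes linked with eosinophils showed no common direction. Alox15, a lipoxygenase of eosinophils and macrophages, stood at 18.01, 18.6 and 20.1 FPKM in control and 15.9, 15.7 and 14.7 FPKM in irradiated libraries. Its groups did not overlap, and its log2 change was -0.27 ± 0.08 (limma adjusted p = 0.0453), close to the value of Siglecf. Adgre1, which encodes F4/80, a surface protein of macrophages and eosinophils, fell by 0.80 ± 0.08. In these libraries 6 of 6 macrophage markers fell, Adgre1 itself being among them. Hrh4, a histamine receptor gene, had values of 2.60 to 3.03 FPKM in control and 2.51 to 5.69 in irradiated libraries and did not pass. Cd24a, present on many marrow cells, rose by 0.27 ± 0.05. Ltc4s and Ptgdr2 were too low to be tested. Over the Siglec family, Siglec1 of macrophages (-2.04 ± 0.12), Siglech of plasmacytoid dendritic cells (-1.95 ± 0.13) and Cd22 of B cells (-0.99 ± 0.16) fell, and the myeloid Cd33 (0.59 ± 0.08) and Siglece (0.55 ± 0.07) rose. Siglecg, the next listed gene after Siglecf, was at -0.30 ± 0.11 and did not pass (limma adjusted p = 0.0925).

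The 7 eosinophil genes called lower moved against most, but not all, tested markers of basophils, mast cells and neutrophils. Of the 8 tested basophil and mast cell markers 6 rose and 0 fell, where 6.29% of all tested genes rose. The summed level of the list was 2363 to 2540 FPKM in control and 3534 to 3623 FPKM in irradiated libraries. Of the same list, Hdc and Kit did not pass, Cma1 was too low to be tested and Tpsb2 is not listed. Mcpt8, a basophil protease, was among the genes that rose, at 798 ± 54.8 and 1125 ± 18.5 FPKM. The log2 ratio of Prg2 to Mcpt8 was 2.18, 2.19 and 2.20 in control and 1.03, 1.07 and 1.09 after irradiation, which is -1.13 apart, with an SD of at most 0.0328 in either group. Of the neutrophil markers, 9 of 9 later ones rose and 2 of 4 of the primary granules, with summed levels of 63864 to 68519 against 94547 to 97593 FPKM and of 4556 to 5111 against 5702 to 5785 FPKM. Prg2 against S100a8 was -2.79, -2.78 and -2.82 in control and -4.06, -4.04 and -4.06 in irradiated libraries, a difference of -1.26. For both ratios the groups did not overlap and the two-sided exact permutation p was 0.1 (adjusted 0.117). With median-of-ratios scaling in place of the library total, each of the 7 eosinophil genes was again called lower, and Prg2 was at -0.60 and Ccr3 at -1.14.

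**Figure D3:**
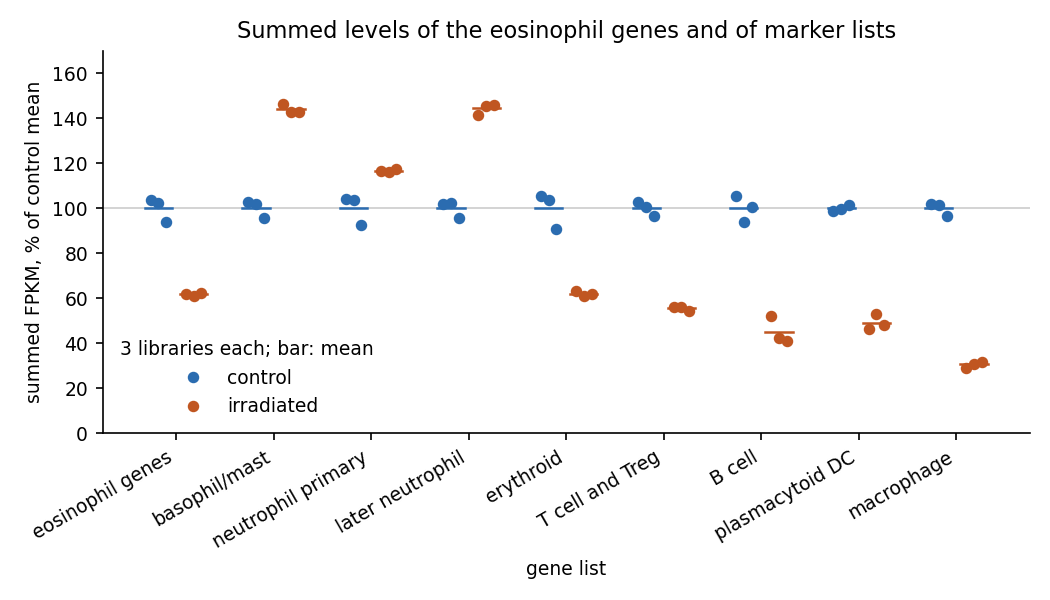
Summed FPKM of the 9 eosinophil genes and of marker lists of other cells in each library, as a percent of the control mean (3 control libraries in blue, 3 irradiated in orange, bars at means). The eosinophil sum lies near 61.7% in irradiated libraries, and the basophil and mast cell list and the later neutrophil list near 144%.

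The T cell and Treg markers were also lower in irradiated libraries, and how Prg2 stood against them varied with the marker. The sum of 7 such markers was at 55.5% ± 0.989 of the control mean and that of the 9 eosinophil genes at 61.7% ± 0.510 (SD, n = 3). Of the 7 T cell markers 6 fell, where 10.3% of all tested genes did. The log2 ratio of Prg2 to Cd3e, which encodes the epsilon chain of CD3, was 6.67, 6.48 and 6.33 in control and 6.58, 6.48 and 6.44 in irradiated libraries. These ranges overlapped, and the difference of 0.01 was smaller than the SD within control, 0.172 (two-sided exact permutation p = 0.9). Its sign changed with the library left out. Against Cd3g, another CD3 chain, the ratio was 5.29, 5.37 and 5.36 in control and 5.71, 5.75 and 5.63 in irradiated libraries, which did not overlap and differed by 0.35. Of the 7 markers, Prg2 was higher without overlap against 2, Cd3g and Cd3d, and overlapped against 5. These further ratios were added after the values were seen and are given with no test. Markers of erythroid cells (3 of 4 lower, summed level 61.9% ± 1.19 of control), B cells (4 of 4, 45.0% ± 6.09), plasmacytoid dendritic cells (3 of 3, 49.1% ± 3.61) and macrophages (6 of 6, 30.5% ± 1.30) were lower too. The defining markers of these cells were above 0 in all 6 libraries, and their part in the values of the Ear genes, Siglecf and Adgre1 was not tested.

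**Figure D4:**
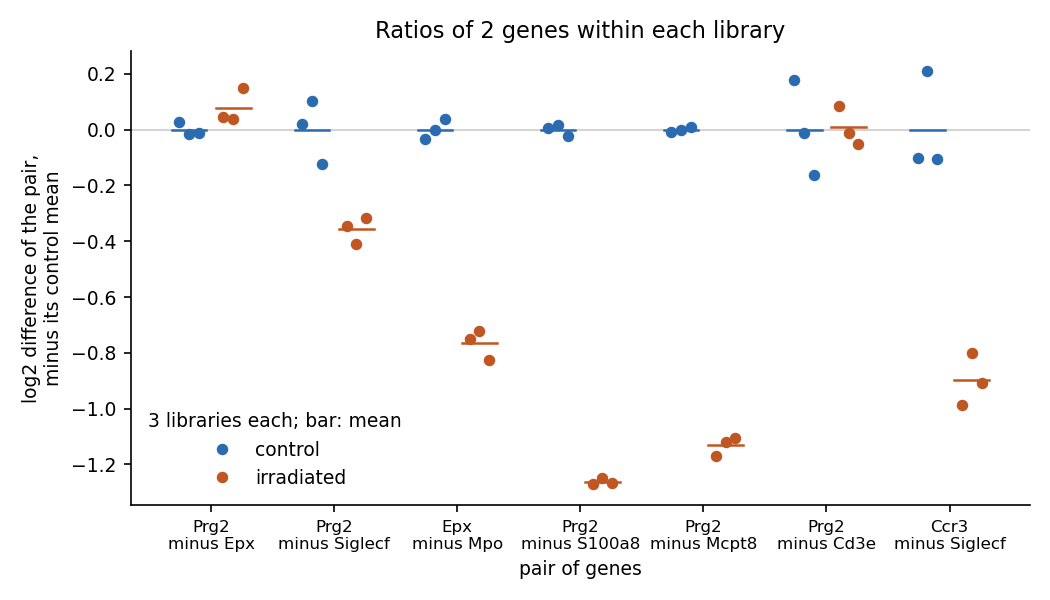
Log2 ratios of 2 genes within each library, each minus its mean in control (blue, 3 libraries, and orange for 3 irradiated libraries, bars at means). Prg2 lies 1.26 and 1.13 lower against S100a8 and Mcpt8 and at 0.01 against Cd3e, where the points of both groups mix.

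Genes with the most similar pattern over the 6 libraries were found by the root mean square distance between log2(FPKM + 1) profiles centred on their means, among 10413 tested genes. For Prg2 these were Hba-a1, an alpha globin (distance 0.0235), Ly6e (0.0288) and Ogfr (0.0296). Of the other 8 eosinophil genes, Epx was the nearest to Prg2, at 0.0541. A search of 10413 genes finds a closer match more easily than a search of 8, so these distances cannot be ranked against each other. The log2 changes of 293 tested genes, Prg2 included, lay within 0.1 of that of Prg2. For Epx the nearest profiles were Ppp1r16b (0.0387), Tnfrsf1b (0.0412) and Ly86 (0.0425). Ear2 lay nearest to Cd68 (0.0205), a lysosomal protein of macrophages, and among the eosinophil genes to Ear6 (0.0262). The nearest to Ear1 was H2-T22 (0.0348) and to Prg3 Ccnd1 (0.0296), and Hmox1 lay at 0.0365 from Ear6. Ccr3 was less closely matched, with Arl5c (0.0660), Tgm2 (0.0752) and Ifi207 (0.0804). Siglecf had Cnot2 (0.0183), Ccdc50 (0.0227) and Akap11 (0.0258), genes with changes of -0.24 to -0.30 that did not pass. Il5ra was nearest to Cryba4 (0.0718), which was also highest in control replicate 1.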

How the data were processed

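The values the authors deposited, 1 for each gene of a library, were read as FPKM from their steps and from totals that differ between libraries, since the headers give no unit. Tools named by the submitters' processing notes are fastp, HISAT2 and StringTie, and builds GRCm38 and mm10. The sources used here give neither versions nor an annotation release.

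The members and lists were chosen with earlier results of these data known. The 10666 genes whose mean over the 6 libraries reached 1 FPKM were compared on the log2(FPKM + 1) scale by limma 3.58.1 (R 4.3.3, two-sided, trended eBayes), which was first tested on simulated data. Calls needed a Benjamini-Hochberg adjusted p under 0.05. All 9 members passed that filter. Changes are irradiated minus control. Adgre1, Irf8, Mpo and Siglech each stand in 2 lists. Some genes counted in the lists or among the nearest profiles are not reported here by name. Ratios of 2 genes were compared by exact permutation (scipy 1.17.1) and adjusted over 7.

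Fragments were estimated from the spacing of values below 0.35 FPKM times kilobases in genes with 1 GENCODE M21 transcript. Between 36.6% and 46.7% of those values lay within 0.1 of a whole step, where 20% would by even spread, so depth is approximate. Sequences were aligned with Biopython 1.88, and upstream windows are from RefSeq GRCm38.p6. In the shares of aligned bases, gaps count as differences, also at the ends. Named genes were the 9 members, list genes past the threshold with the defining genes of each list, the 3 nearest profiles per member and the nearest listed gene on each side. Alternatives were another pseudocount, filter, scaling, variance model, the replicate number as a block, and each library left out in turn.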

Additional observations from a re-analysis of the deposited data

How the results depend on the processing

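The 7 eosinophil genes called lower kept their direction and call in all 14 alternative fits, with adjusted p of at most 0.00234 (Prg2). Prg2 ran from -0.69 to -0.60, Epx from -0.76 to -0.68, Prg3 from -0.999 to -0.849, Ear1 from -0.86 to -0.79, Ear2 from -0.84 to -0.77, Ear6 from -0.84 to -0.76 and Ccr3 from -1.28 to -1.10. The count of lower members was 8 without a variance trend, where Siglecf passed. With a library left out Il5ra ran from -0.26 to 0.11, the latter without control replicate 1, and could not be tested at a minimum mean of 5 FPKM. Over all genes, 1771 were called, and between 1136 (414 higher and 722 lower, without control replicate 2) and 1662 when a library was left out. The ratio of Prg2 to Cd3e was -0.0746 without control replicate 3 and -0.0311 without irradiated replicate 1, and up to 0.0969 with other libraries left out. With the replicate number as a block 7 members and 1506 genes were called. The labels do not say whether same-numbered libraries are paired. Their deviations correlated at 0.011, -0.042 and -0.023 across genes, which cannot settle it. Exact tests of 3 against 3 libraries cannot go below 0.1. For Il5ra the counting error was at most an estimated 12.7%, and its coefficient of variation in control was 38.3%.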

Other observations

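Within the basophil and mast cell list, Hdc, the histidine decarboxylase of basophils and mast cells, stood at 109 ± 3.28 FPKM in control and 105 ± 2.43 in irradiated libraries and Kit at 16.8 ± 0.654 and 16.7 ± 1.43 (SD, n = 3), and neither passed the test. Fcer1a, the alpha chain of the IgE receptor, rose by 0.68 ± 0.05 and Prss34, a basophil protease, by 0.58 ± 0.04. Of 3 tested megakaryocyte and platelet genes 1 rose, Itga2b at 0.75 ± 0.08, and 1 fell, Ppbp at -1.14 ± 0.21, while Pf4 did not pass (0.36 ± 0.12).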
